A study of Mus musculus with 24 samples.

Results

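Cxcr3, Cxcr4, Cxcr5, Cxcr6, Ccr2, Ccr4, Ccr8 and Ccr9, the genes of 8 chemokine receptors of inflammatory, follicular and gut homing, were followed in RNA of invariant natural killer T (iNKT) cells. They were chosen by name and are 8 of the 55335 genes in the deposited table of counts. Each matched 1 row by its Ensembl identifier, and all 8 were among the 15953 genes that passed the filter on low counts.

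iNKT cells are lymphocytes with a nearly fixed T cell receptor that sees lipids on the molecule CD1d. They were purified by sorting out of mesenteric lymph nodes of C57BL/6J mice, 24 h after the mice had been gavaged with alpha-galactosylceramide (aGC, 2 µg), the standard lipid that activates these cells, or with PBS, each in 200 µL. Their mothers had been given a fecal transplant (FT), taken either from donors that lack CD1d (KO FT) or from wild-type donors (WT FT), so the knockout is that of the feces donors. With the sexes apart there were 8 groups of 3 libraries: KO FT males and females after aGC and after PBS, and WT FT males and females after aGC and after PBS. Age, mice per library and sort gate are not stated in the labels. Nor do they state separate animals for the 3 libraries within each group; p-values therefore measure only how far these libraries spread, and that spread may be technical. Donor, dam, litter and cage cannot be told apart.

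Chemokine receptors are G protein-coupled receptors of the cell surface. A receptor that meets its ligand signals mainly through an inhibitory G protein, directs the cell up the ligand's gradient and arrests it on vessel walls through integrins, until kinases, arrestins and regulators of G protein signalling switch the signal off. Which receptors a T cell carries decides which tissues it can enter: CXCR3 and CCR2 are known for inflamed tissue, CXCR5 for B cell follicles, CCR9 for the small intestine, CCR4 and CCR8 for skin and sites of type 2 inflammation, and CXCR4 for bone marrow. CXCR6 is known from mice to keep iNKT cells in the liver.

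Total estimated counts were 9764931 to 37016768 per library. At these depths 3 counts, the limit that a count of 0 allows, correspond to 0.0801 to 0.302 CPM, which covers counting error only. Levels below are CPM, counts scaled to library size with TMM factors. The sorted cells carried the iNKT segments Trav11 (325 to 880 CPM) and Traj18 (46.5 to 117 CPM), the lineage factor Zbtb16 (30.8 to 84.9 CPM) and Cd3e (695 to 1132 CPM) in all 24 libraries. The libraries also fell into 2 sets of 12 that cross treatment and sex. In PBS males and aGC females of both transplants Cd8a stood at 131 to 292 CPM, Cd8b1 at 253 to 574 CPM, and the 10 markers of CD8 and naive T cells summed to 2012 to 3439 CPM. In aGC males and PBS females Cd8a stood at 4.79 to 8.10 CPM, Cd8b1 at 6.36 to 12.9 CPM, and the sum at 564 to 842 CPM. Each comparison of aGC with PBS within a sex thus sets a library set rich in these markers against one poor in them, in opposite directions in males and females. For that reason aGC against PBS is also given for aGC males against PBS females, both from the set poor in these markers, although their sums did not overlap (564 to 616 CPM in aGC males and 754 to 842 CPM in PBS females) and sex differs (49.9% of all genes passed in KO FT mice and 60.3% in WT FT mice). In bulk RNA, fewer cells of a type and less RNA per cell cannot be told apart.

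Per gene length and as a mean of the 24 libraries, Cxcr6 was the most abundant of the 8 transcripts and Cxcr4 the least. Over the 24 libraries Cxcr6 averaged 1201 CPM per kilobase of joined exons and Cxcr3 averaged 352, while Ccr8 averaged 54.6, Ccr9 23.8, Ccr2 15.5, Ccr4 11.7, Cxcr5 4.91 and Cxcr4 1.29. Divided by the longest annotated transcript instead, Ccr9 averaged 47.1 CPM per kilobase, and the order of the 8 genes was the same. Cxcr6 and Cxcr3 led in each of the 8 groups, while the order below them varied. In KO FT PBS males Cxcr4 averaged 2.76 CPM per kilobase of joined exons and Cxcr5 2.32, and Ccr9 averaged 39 and Ccr8 29.2. In KO FT PBS females Ccr2 averaged 27.6 CPM per kilobase and Ccr8 25.1. Cxcr6 alone made up 55.5 to 74.2% of the summed CPM of the 8 genes in a library. Among the 10 other conventional chemokine receptors, the lymph node homing receptor Ccr7 had the highest level, with 189 CPM per kilobase, between Cxcr3 and Ccr8. Ccr6 and Xcr1 averaged 1.53 and 2.65 CPM per kilobase, above Cxcr4, and Ccr1, Ccr3, Ccr10, Cxcr1, Cxcr2 and Cx3cr1 did not exceed 2.51 CPM in any library.

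**Figure D1:**
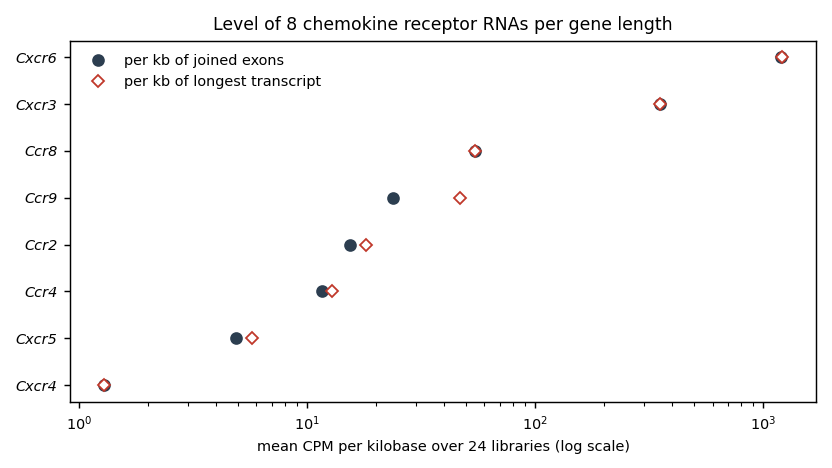
Mean CPM per kilobase over 24 libraries (x axis, log scale) for each receptor gene, by the length of all joined exons (filled circles) and of the longest annotated transcript (open diamonds). Cxcr6, at 1201 CPM per kilobase of joined exons, and Cxcr3, at 352, stand above the other 6 genes, and Cxcr4, at 1.29, stands lowest.

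Of the 8 genes, 6 lie on mouse chromosome 9: Cxcr5, Cxcr6, Ccr2, Ccr4, Ccr8 and Ccr9. Ccr9 (chromosome 9, 123678439 to 123784330, plus strand), Cxcr6 (chromosome 9, 123806475 to 123811760, plus strand) and Ccr2 (chromosome 9, 124101950 to 124113557, plus strand) lie close together in GRCm38. As means of the sexes all 3 were lower after aGC under both transplants, and in single strata their directions differed, as described below. Cxcr3, Cxcr6 and Ccr8 shared no 31-base stretch with another annotated transcript. Of those of Ccr9, 11.05% also occur in transcripts of other genes, most often AC165425.1, Gm17200 and Olfr1156. AC165425.1 and Gm17200 were listed at no more than 2.47 and 3.88 CPM in any library.

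The answer to antigen was read from aGC against PBS within each transplant, as the mean of the sexes. After aGC, Cxcr5 and Ccr8 were higher and Cxcr3, Ccr2, Cxcr6 and Ccr9 were lower under both transplants, in edgeR's quasi-likelihood test with Benjamini-Hochberg adjustment over all 15953 genes. In KO FT mice 3 members passed toward higher levels (Cxcr5, Ccr8 and Ccr4), 4 toward lower levels (Cxcr3, Ccr2, Cxcr6 and Ccr9) and Cxcr4 did not pass. Of all genes tested 58.1% passed in that comparison, 28.1% higher and 30.1% lower. In WT FT mice 2 members passed toward higher levels (Cxcr5 and Ccr8), 4 toward lower levels (Cxcr3, Ccr2, Cxcr6 and Ccr9), and Cxcr4 and Ccr4 did not pass, against 68.4% of all genes, 30.9% higher and 37.5% lower. The counts of members passing are thus near what these libraries give for any gene, and the values below describe the genes 1 by 1. The median log2 change of the 8 members was -0.24 in KO FT mice and -0.37 in WT FT mice, beside -0.03 and -0.11 over all genes.

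Within the strata 53.5% of all genes passed in KO FT males, 56% in KO FT females, 66.6% in WT FT males and 58.4% in WT FT females. Direction held in each of the 4 strata of transplant and sex for 4 of the 8 genes. Cxcr5 and Ccr8 passed toward higher levels in all 4, as 10.6% of all genes did, and Cxcr3 and Ccr2 toward lower levels in all 4, as 6.86% of all genes did. Ccr9 passed in all 4 strata with mixed signs. Over the 6 libraries of each treatment, aGC and PBS libraries did not overlap for Cxcr3, Ccr2, Cxcr5 and Ccr8 in KO FT mice (23.3% of all genes), and for these genes and Ccr9 in WT FT mice (33.4% of all genes).

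**Figure D2:**
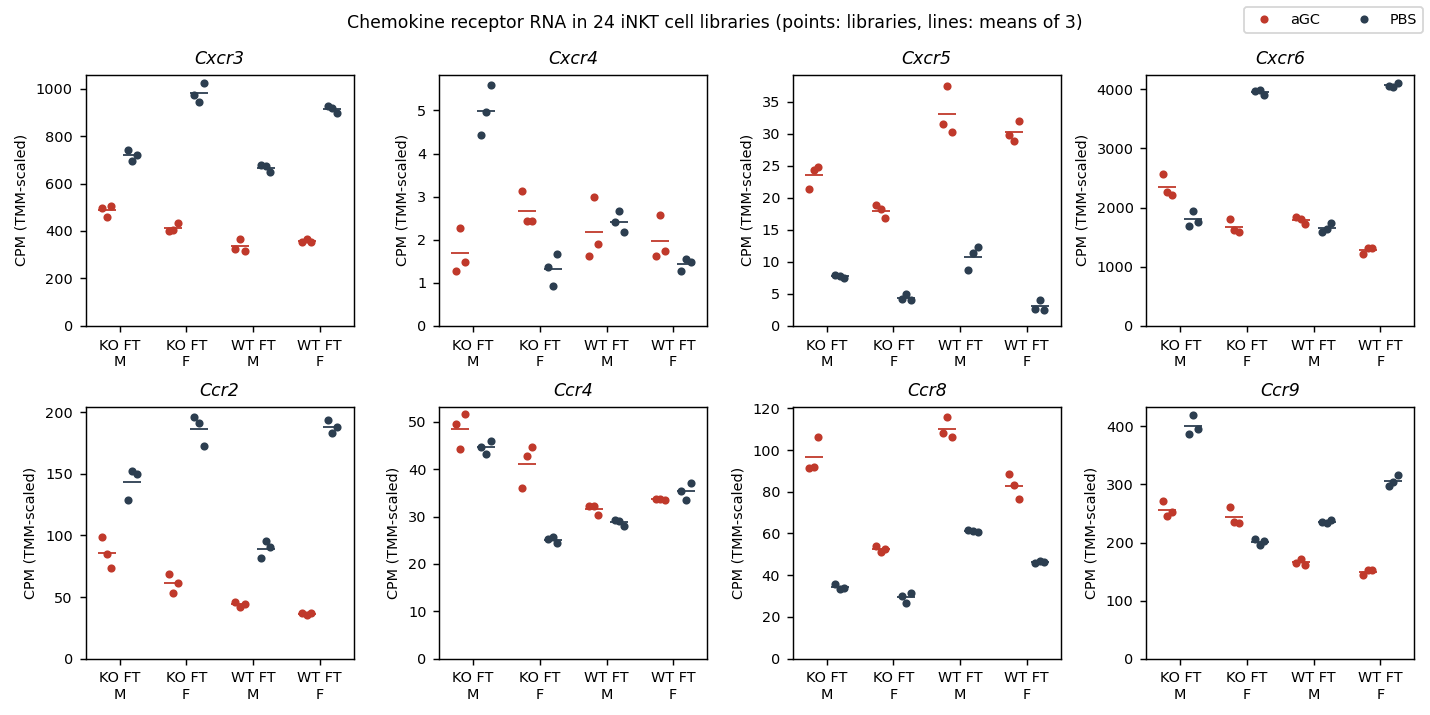
CPM (y axes, from 0) of each receptor gene in 24 libraries, in 4 strata of transplant and sex (M, males; F, females), with aGC libraries in red left of PBS libraries in dark blue. Points are libraries and lines are means of 3. Cxcr3 and Ccr2 are lower and Cxcr5 and Ccr8 higher after aGC in every stratum, while Cxcr6 after PBS lies at 3895 to 4103 CPM in females and at 1588 to 1943 CPM in males.

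The 250 bases before the RefSeq start of Cxcr3, Ccr2 and Ccr8 (GRCm38.p6) are shown because these genes moved the same way in all 4 strata, Cxcr3 and Ccr2 lower and Ccr8 higher. Windows were found for 7 of the 8 members, and none was found for Cxcr5. The RefSeq starts differ from the gene bounds of the GENCODE M21 annotation. By those bounds Ccr2 begins at 124101950, so most of its window, with its NFAT matches, lies inside the gene. Part of the Cxcr3 window (gene end 101734269) and the last bases of the Ccr8 and Cxcr6 windows also lie inside their genes. The windows of Ccr4 and Ccr9 lie wholly inside theirs. Capitals mark matches, on either strand, to any of 6 motifs searched: TCACAC (the core bound by T-box factors such as T-bet), GGAAA (the core bound by NFAT), TGANTCA (AP-1), AAAGGTCA (NR4A), GCGNGGGCG (EGR) and the interferon-stimulated response element. No 2 matches in the 7 windows overlapped.
Cxcr3, chrX:101734148-101734397, minus strand: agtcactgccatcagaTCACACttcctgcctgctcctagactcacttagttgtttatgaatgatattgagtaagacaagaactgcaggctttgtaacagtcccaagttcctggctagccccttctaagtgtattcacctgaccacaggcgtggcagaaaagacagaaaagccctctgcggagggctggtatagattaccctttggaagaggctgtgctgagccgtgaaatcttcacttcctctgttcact
Ccr2, chr9:124101933-124102182, plus strand: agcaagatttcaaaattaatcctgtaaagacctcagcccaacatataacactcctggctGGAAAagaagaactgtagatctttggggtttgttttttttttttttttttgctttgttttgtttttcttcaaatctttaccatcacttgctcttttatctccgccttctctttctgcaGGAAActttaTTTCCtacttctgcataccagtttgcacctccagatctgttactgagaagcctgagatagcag
Ccr8, chr9:120091883-120092132, plus strand: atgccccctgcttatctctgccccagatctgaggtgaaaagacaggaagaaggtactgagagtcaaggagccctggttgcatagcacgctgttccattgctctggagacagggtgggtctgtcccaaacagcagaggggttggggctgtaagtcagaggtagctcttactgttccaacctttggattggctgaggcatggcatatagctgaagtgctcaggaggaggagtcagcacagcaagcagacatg
The Cxcr3 window held 1 T-box core, 234 bases before the start (TCACAC, found in 12.3% of 32851 promoters of the same length). The Ccr2 window held 3 NFAT cores (found at least once in 55.6% of promoters), and the Ccr8 window held none of the 6 motifs. AP-1, interferon, NR4A and EGR motifs occurred in 6.75%, 2.98%, 1.34% and 4.7% of promoters. Among the other windows, that of Cxcr6 held 3 NFAT cores, that of Ccr4 an NFAT core directly followed by an AP-1 match, that of Cxcr4 an NFAT core and an EGR match, and that of Ccr9 none. A match is a run of letters and was not tested as a binding site.

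Cxcr3 (ENSMUSG00000050232.6, chromosome X, 101731535 to 101734269, minus strand) encodes the receptor for CXCL9 and CXCL10, chemokines that interferon gamma induces in inflamed tissue. Cxcr3 in KO FT males was 498, 460 and 505 CPM after aGC, against 743, 694 and 720 CPM after PBS. KO FT females had 400, 403 and 433 CPM of Cxcr3 after aGC, against 974, 942 and 1024 CPM after PBS. All 12 KO FT libraries were ordered by treatment. The gap was wider in females, whose PBS libraries were the highest and whose aGC libraries were below those of males. WT FT males gave 325, 367 and 315 CPM of Cxcr3 after aGC, against 678, 672 and 648 CPM after PBS, and WT FT females 354, 368 and 352 CPM after aGC, against 925, 920 and 897 CPM after PBS. Every aGC library of either transplant was below every PBS library of either transplant. The log2 change was -0.90 ± 0.04 (SE) in KO FT mice (edgeR, adjusted p = 5.81e-16) and -1.17 ± 0.04 in WT FT mice (edgeR, adjusted p = 2.42e-18). In the strata it was -0.56 and -1.25 in KO FT males and females, and -0.99 and -1.35 in WT FT males and females. Between aGC males and PBS females it was -1.01 in KO FT mice and -1.45 in WT FT mice. In rank order the groups ran from KO FT PBS females (980 ± 41.3 CPM, mean ± SD, n = 3) down to WT FT aGC males (336 ± 27.4 CPM), and only WT FT aGC females and WT FT aGC males, at the low end, overlapped their neighbour.

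Ccr2 (ENSMUSG00000049103.14) encodes the receptor for CCL2, which draws monocytes and effector T cells into inflamed tissue. Ccr2 in KO FT males was 98.5, 85.3 and 73.3 CPM after aGC, against 129, 152 and 150 CPM after PBS. Ccr2 in KO FT females was 69.0, 53.1 and 61.4 CPM after aGC, against 196, 191 and 173 CPM after PBS. The groups were apart in both sexes, with the deeper fall in females. Ccr2 in WT FT males was 46.0, 42.2 and 44.7 CPM after aGC, against 81.9, 95.4 and 90.6 CPM after PBS, and WT FT females 37.2, 35.2 and 36.8 CPM after aGC, against 194, 183 and 188 CPM after PBS. The 6 WT FT aGC libraries were the lowest of all 24. Ccr2 had a log2 change of -1.18 ± 0.07 in KO FT mice (edgeR, adjusted p = 2.75e-13) and -1.69 ± 0.07 in WT FT mice (edgeR, adjusted p = 2.9e-16), the largest fall of the 8 genes under each transplant. It was -0.75 and -1.61 in KO FT males and females, and -1.01 and -2.37 in WT FT males and females. Between aGC males and PBS females the change was -1.13 in KO FT mice and -2.09 in WT FT mice. Monocytes also express Ccr2. Beside it, the 10 monocyte and macrophage markers, of which 7 passed the filter, summed in KO FT males and females to 120 to 131 and 125 to 129 CPM after aGC, against 147 to 163 and 134 to 147 CPM after PBS. In WT FT males and females they summed to 78.2 to 87.6 and 180 to 187 CPM after aGC, against 219 to 241 and 152 to 156 CPM after PBS. Lyz2 stood at 0.356 to 63.3 CPM and Csf1r at 0 to 5.01 CPM, and Adgre1, Fcgr1, Cd14, Ccr1 and Csf1r were each at 0 throughout at least 1 group. Single markers did not all follow the sum. After aGC 3 were higher, 1 lower and 3 did not pass in KO FT mice, beside 28.1% higher and 30.1% lower of all genes. In WT FT mice 1 was higher, 4 lower and 2 did not pass, beside 30.9% and 37.5% of all genes. Lyz2 had log2 changes of 1.64 ± 0.13 in KO FT mice and -1.60 ± 0.09 in WT FT mice, and Csf1r 2.85 ± 0.72 and -1.55 ± 0.32. The part of such cells in the Ccr2 counts was not tested.

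Cxcr5 (ENSMUSG00000047880.15, chromosome 9, 44511787 to 44561877, minus strand) encodes the receptor for CXCL13, which guides B cells and follicular helper T cells into follicles. Cxcr5 in KO FT males was 21.4, 24.4 and 24.8 CPM after aGC, against 7.90, 7.81 and 7.47 CPM after PBS. KO FT females had 18.9, 18.2 and 16.8 CPM of Cxcr5 after aGC, against 4.26, 4.91 and 4.05 CPM after PBS. Under this transplant each aGC library was above each PBS library. WT FT males gave 31.6, 37.5 and 30.2 CPM of Cxcr5 after aGC, against 8.67, 11.4 and 12.3 CPM after PBS, and WT FT females 29.8, 28.8 and 32.0 CPM after aGC, against 2.59, 4.08 and 2.50 CPM after PBS. All 12 aGC libraries were above all 12 PBS libraries, and the 6 WT FT aGC libraries were the highest. Cxcr5 had the largest rise of the 8 genes, with a log2 change of 1.82 ± 0.11 in KO FT mice (edgeR, adjusted p = 5.68e-13) and 2.47 ± 0.11 in WT FT mice (edgeR, adjusted p = 7.6e-16). It was 1.61 and 2.03 in KO FT males and females, and 1.62 and 3.32 in WT FT males and females. Between aGC males and PBS females it was 2.43 in KO FT mice and 3.45 in WT FT mice. B cells carry much Cxcr5, and beside it the B cell genes Cd79a, Pax5 and Cr2 stood at 0.368 to 4.43, 0 to 1.29 and 0 to 1.40 CPM. Of the 12 B cell markers 10 passed the filter, and Ighm alone reached 441 to 1051 CPM, most of their sum. In KO FT males and females the 12 summed to 527 to 588 and 625 to 652 CPM after aGC, against 994 to 1017 and 1051 to 1096 CPM after PBS. In WT FT males and females they summed to 463 to 523 and 691 to 721 CPM after aGC, against 1061 to 1095 and 1006 to 1046 CPM after PBS. The part of B cells in the Cxcr5 counts was not tested. Exons of Cxcr5 overlap those of Bcl9l on the other strand by 110 bases, and Bcl9l stood at 2.20 to 15.9 CPM. The libraries do not keep the strand.

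Ccr8 (ENSMUSG00000042262.5, chromosome 9, 120092114 to 120094906, plus strand) encodes the receptor for CCL1 and, in mice, CCL8, and is known on type 2 and regulatory T cells. Ccr8 in KO FT males was 91.2, 92.1 and 106 CPM after aGC, against 35.9, 33.4 and 33.7 CPM after PBS. KO FT females had 53.9, 50.9 and 52.7 CPM of Ccr8 after aGC, against 30.1, 26.9 and 31.6 CPM after PBS. The aGC libraries were higher in both sexes, and those of males the highest. WT FT males gave 108, 116 and 106 CPM of Ccr8 after aGC, against 61.5, 61.2 and 60.6 CPM after PBS, and WT FT females 88.7, 83.2 and 76.4 CPM after aGC, against 45.9, 46.8 and 46.3 CPM after PBS. Treatment groups were apart within each transplant, but KO FT aGC females stayed below WT FT PBS males. The log2 change was 1.16 ± 0.05 in KO FT mice (edgeR, adjusted p = 2.94e-15) and 0.84 ± 0.05 in WT FT mice (edgeR, adjusted p = 2.36e-13). It was 1.49 and 0.83 in KO FT males and females, and 0.85 and 0.84 in WT FT males and females. Between aGC males and PBS females it was 1.71 in KO FT mice and 1.25 in WT FT mice. All 8 groups of Ccr8 libraries were apart from their neighbours in rank, WT FT aGC males (110 ± 5.22 CPM, mean ± SD, n = 3) highest and KO FT PBS females (29.5 ± 2.41 CPM) lowest. The nearest libraries of the 2 highest groups both round to 106 CPM. Regulatory T cells also express Ccr8, and their defining factor Foxp3 stood at 1.78 to 18 CPM in PBS males and aGC females and at 0 to 1.67 CPM in aGC males and PBS females. All 7 regulatory T cell markers passed the filter, and they summed in KO FT males and females to 1025 to 1164 and 894 to 973 CPM after aGC, against 900 to 946 and 1014 to 1064 CPM after PBS. In WT FT males and females they summed to 1275 to 1382 and 1200 to 1260 CPM after aGC, against 946 to 1005 and 952 to 996 CPM after PBS. Foxp3 was at 0 in all KO FT PBS female libraries, and WT FT aGC males had both the highest sum and the highest Ccr8. In these males Foxp3 did not exceed 1.67 CPM, so other genes on the list made up nearly all of that sum. The 7 markers did not move together. After aGC 3 were higher, 2 lower and 2 did not pass in KO FT mice, beside 28.1% higher and 30.1% lower of all genes. In WT FT mice 3 were higher, 1 lower and 3 did not pass, beside 30.9% and 37.5% of all genes. Foxp3 had log2 changes of 4.30 ± 0.40 in KO FT mice and -0.89 ± 0.20 in WT FT mice, beside 1.45 ± 0.04 and 1.81 ± 0.04 for Il2ra. The part of such cells in the Ccr8 counts was not tested.

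**Figure D3:**
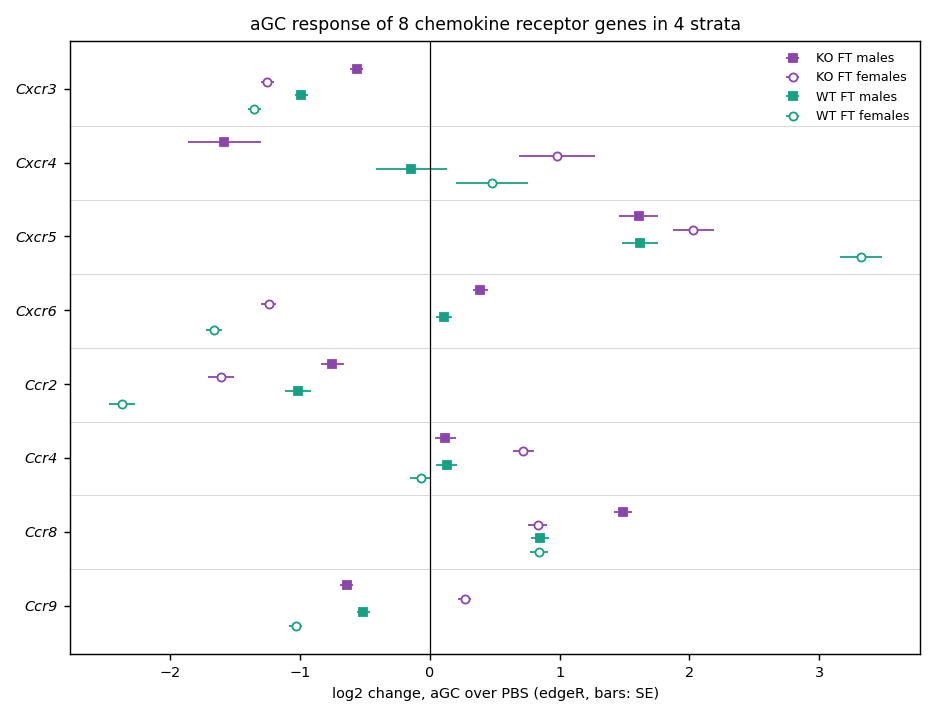
Log2 change of aGC over PBS (x axis, edgeR; bars, SE) for each receptor gene in KO FT males (filled purple squares), KO FT females (open purple circles), WT FT males (filled green squares) and WT FT females (open green circles). Cxcr3 and Ccr2 lie left of 0 and Cxcr5 and Ccr8 right of 0 in all 4 strata, while Cxcr6 lies far left of 0 in females and right of it, by at most 0.39, in males.

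Cxcr6 (ENSMUSG00000048521.8) encodes the receptor for CXCL16 and is carried by most mouse iNKT cells. Cxcr6 in KO FT males was 2564, 2265 and 2219 CPM after aGC, against 1688, 1943 and 1762 CPM after PBS. Cxcr6 in KO FT females was 1811, 1614 and 1580 CPM after aGC, against 3966, 3993 and 3895 CPM after PBS. Males thus held more Cxcr6 RNA after aGC and females less. Cxcr6 in WT FT males was 1837, 1802 and 1716 CPM after aGC, against 1588, 1645 and 1733 CPM after PBS, and WT FT females 1220, 1322 and 1314 CPM after aGC, against 4057, 4034 and 4103 CPM after PBS. The 6 PBS female libraries, at 3895 CPM or more, stood above the other 18, which did not exceed 2564 CPM. Cxcr6 had a log2 change of 0.39 ± 0.06 in KO FT males (edgeR, adjusted p = 5.24e-06) and -1.24 ± 0.06 in KO FT females (edgeR, adjusted p = 1.91e-14). Among WT FT mice it was 0.11 ± 0.06 in males (edgeR, adjusted p = 0.101) and -1.66 ± 0.06 in females (edgeR, adjusted p = 7.97e-17). The response in males less that in females was 1.63 ± 0.08 in KO FT mice (edgeR, adjusted p = 3.06e-13) and 1.77 ± 0.08 in WT FT mice (edgeR, adjusted p = 4.06e-14). The change in WT FT males passed without WT FT aGC male replicate 3 (log2 change 0.16, edgeR, adjusted p = 0.0371) and without KO FT aGC male replicate 1 (0.13, adjusted p = 0.0297). As a mean of the sexes the change was -0.43 ± 0.04 in KO FT mice and -0.78 ± 0.04 in WT FT mice, and between aGC males and PBS females it was -0.75 and -1.19. PBS females are poor in CD8 and naive markers and PBS males rich, while aGC females are rich and aGC males poor. Whether that difference has a part in the sex difference of Cxcr6 was not tested.

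Ccr9 (ENSMUSG00000029530.16) encodes the receptor for CCL25, made by the epithelium of small intestine and thymus, and is the member best known for gut homing. Ccr9 in KO FT males was 271, 245 and 253 CPM after aGC, against 386, 419 and 396 CPM after PBS. KO FT females had 261, 236 and 233 CPM of Ccr9 after aGC, against 206, 195 and 203 CPM after PBS. The direction in KO FT mice thus differed between the sexes. WT FT males gave 164, 172 and 162 CPM of Ccr9 after aGC, against 235, 234 and 238 CPM after PBS, and WT FT females 144, 152 and 152 CPM after aGC, against 297, 304 and 316 CPM after PBS. Under the WT FT every aGC library was below every PBS library. The log2 change was -0.64 ± 0.05 in KO FT males (edgeR, adjusted p = 1.55e-10) and 0.27 ± 0.05 in KO FT females (edgeR, adjusted p = 7.12e-05). It was -0.51 ± 0.05 in WT FT males (edgeR, adjusted p = 4.59e-09) and -1.03 ± 0.05 in WT FT females (edgeR, adjusted p = 2.77e-14). The response in males less that in females was -0.91 in KO FT mice (edgeR, adjusted p = 6.18e-10) and 0.52 in WT FT mice (edgeR, adjusted p = 2.43e-06). Averaged over the sexes the change was -0.19 ± 0.04 in KO FT mice (edgeR, adjusted p = 8.46e-05) and -0.77 ± 0.04 in WT FT mice (edgeR, adjusted p = 3.23e-15). Between aGC males and PBS females it turned to 0.35 in KO FT mice (edgeR, adjusted p = 3.12e-06) and was -0.88 in WT FT mice, so the direction in KO FT mice depends on which libraries are compared. Naive CD8 T cells of mice also express Ccr9, and the highest Ccr9 was in KO FT PBS males (400 ± 16.6 CPM, mean ± SD, n = 3), whose CD8 and naive markers summed to 2448 to 2563 CPM. WT FT PBS males, with a higher sum of 3362 to 3439 CPM, held 236 ± 2.14 CPM of Ccr9. The part of such cells in the Ccr9 counts was not tested.

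Ccr4 (ENSMUSG00000047898.7, chromosome 9, 114490316 to 114504916, minus strand) encodes the receptor for CCL17 and CCL22, ligands made by dendritic cells and in skin. Ccr4 in KO FT males was 49.5, 44.2 and 51.7 CPM after aGC, against 44.7, 43.2 and 45.9 CPM after PBS. Ccr4 in KO FT females was 36.1, 42.7 and 44.7 CPM after aGC, against 25.3, 25.7 and 24.4 CPM after PBS. KO FT females were apart by treatment, with the aGC libraries higher, and KO FT males overlapped. Ccr4 in WT FT males was 32.2, 32.2 and 30.3 CPM after aGC, against 29.2, 29.1 and 28.0 CPM after PBS, and WT FT females 33.7, 33.8 and 33.4 CPM after aGC, against 35.4, 33.5 and 37.1 CPM after PBS. The aGC libraries of WT FT males lay just above their PBS libraries, and WT FT females overlapped. Ccr4 had a log2 change of 0.12 ± 0.08 in KO FT males (edgeR, adjusted p = 0.173) and 0.72 ± 0.08 in KO FT females (edgeR, adjusted p = 4.71e-08). It was 0.13 ± 0.08 in WT FT males and -0.07 ± 0.08 in WT FT females (edgeR, adjusted p = 0.133 and 0.444). As a mean of the sexes it was 0.42 ± 0.05 in KO FT mice (edgeR, adjusted p = 4.9e-07) and 0.03 ± 0.05 in WT FT mice (edgeR, adjusted p = 0.627). With upper-quartile scaling the change in WT FT mice was -0.02. Between aGC males and PBS females it was 0.95 in KO FT mice and -0.16 in WT FT mice (edgeR, adjusted p = 0.0756).

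Cxcr4 (ENSMUSG00000045382.6, chromosome 1, 128588199 to 128592293, minus strand) encodes the receptor for CXCL12, which holds lymphocytes in bone marrow. Its RNA was scarce. Cxcr4 in KO FT males was 1.27, 2.28 and 1.49 CPM after aGC, against 4.42, 4.97 and 5.6 CPM after PBS. Cxcr4 in KO FT females was 3.12, 2.43 and 2.44 CPM after aGC, against 1.37, 0.929 and 1.67 CPM after PBS. The KO FT sexes thus moved in opposite directions. Cxcr4 in WT FT males was 1.63, 3.00 and 1.91 CPM after aGC, against 2.40, 2.66 and 2.19 CPM after PBS, and WT FT females 1.63, 2.57 and 1.74 CPM after aGC, against 1.28, 1.55 and 1.49 CPM after PBS. WT FT libraries of the 2 treatments overlapped in males and were apart by little in females. Cxcr4 had a log2 change of -1.58 ± 0.28 in KO FT males (edgeR, adjusted p = 3.96e-05) and 0.98 ± 0.29 in KO FT females (edgeR, adjusted p = 0.00561). The response in KO FT males less that in KO FT females was -2.56 ± 0.40 (edgeR, adjusted p = 1.72e-05). Under the WT FT Cxcr4 did not pass in males (-0.14 ± 0.27) or in females (0.48 ± 0.28), with edgeR adjusted p = 0.665 and 0.154. KO FT PBS males were apart from the other 7 groups, which overlapped their neighbours in rank from 2.66 to 1.32 CPM. Cxcr4 had a log2 difference between aGC males and PBS females of 0.32 in KO FT mice and 0.61 in WT FT mice (edgeR, adjusted p = 0.387 and 0.0675). Without the filter on low counts the change in KO FT females did not pass (log2 change 0.91, edgeR, adjusted p = 0.074).

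The donor of the transplant was then compared within each treatment. After aGC, Cxcr3, Ccr2, Ccr4, Ccr9 and Cxcr6 were higher and Cxcr5 and Ccr8 lower in KO FT than in WT FT mice, and Cxcr4 did not pass. Of all genes 51.9% passed in that comparison, 25.4% higher and 26.5% lower, and 46.5% and 43.4% passed in males and females alone. Ccr2 had the largest log2 difference, 0.85 ± 0.07 (edgeR, adjusted p = 1.03e-09), followed by Ccr9 with 0.67 ± 0.04 (edgeR, adjusted p = 1.57e-12). The other differences toward KO FT were 0.46 ± 0.05 for Ccr4, 0.39 ± 0.04 for Cxcr6 and 0.37 ± 0.04 for Cxcr3, and those toward WT FT were -0.62 ± 0.10 for Cxcr5 and -0.42 ± 0.05 for Ccr8 (edgeR, adjusted p of these 5 genes at most 1.1e-05). These 7 genes passed in each sex with the same sign, 5 higher and 2 lower, as 8.94% and 12.2% of all genes did. The 6 KO FT aGC libraries were above the 6 WT FT aGC libraries for Cxcr3, Ccr2, Ccr4 and Ccr9 and below them for Cxcr5, which are groups that do not overlap, as for 16.1% of all genes. For Ccr9 the 6 KO FT libraries ran from 233 to 271 CPM and the 6 WT FT libraries from 144 to 172 CPM. The difference of Ccr8 in males was the smallest of these in a sex, -0.19 ± 0.07 (edgeR, adjusted p = 0.0271). It did not pass without WT FT aGC male replicate 2 (-0.15, adjusted p = 0.116), KO FT aGC male replicate 1 (-0.16, adjusted p = 0.0911) or KO FT aGC male replicate 2 (-0.17, adjusted p = 0.0792), nor without the filter on low counts (-0.16, adjusted p = 0.288).

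Fewer members passed between the transplants after PBS, and several of them had opposite directions in the sexes. As a mean of the sexes, Ccr8 was lower in KO FT mice, by a log2 difference of -0.74 ± 0.05 (edgeR, adjusted p = 7.96e-10), Ccr2 was higher, by 0.34 ± 0.06 (edgeR, adjusted p = 0.000424), and Cxcr3 was higher, by 0.10 ± 0.04 (edgeR, adjusted p = 0.0321). The other 5 members did not pass, against 29.4% of all genes that did, 14.6% higher and 14.8% lower. In males alone 42.5% of all genes passed, and in females alone 29.8%. Ccr8 was the only member that passed toward lower levels in both sexes (-0.83 in males and -0.65 in females), as 2.18% of all genes did. No member passed toward higher levels in both, as 1.94% of all genes did. Cxcr3 was higher in both by value (0.11 in males and 0.10 in females) and passed in neither. The 6 KO FT PBS libraries of Ccr8, at 26.9 to 35.9 CPM, lay below the 6 WT FT PBS libraries, at 45.9 to 61.5 CPM. Such a separation was found for 3.55% of all genes. Ccr9 was higher in KO FT males (0.76 ± 0.05, edgeR, adjusted p = 1.4e-10) and lower in KO FT females (-0.60 ± 0.05, edgeR, adjusted p = 2.75e-08). Ccr4 followed the same pattern, with 0.63 ± 0.08 in males (edgeR, adjusted p = 1.11e-06) and -0.49 ± 0.08 in females (edgeR, adjusted p = 7.07e-05). Cxcr5 had the reverse signs, with -0.48 ± 0.15 in males (edgeR, adjusted p = 0.0124) and 0.54 ± 0.17 in females (edgeR, adjusted p = 0.0208). Ccr2 and Cxcr4 passed in males, with 0.69 ± 0.09 and 1.05 ± 0.26 (edgeR, adjusted p = 3.74e-06 and 0.00269), and not in females, with -0.01 ± 0.09 and -0.09 ± 0.29 (edgeR, adjusted p = 0.94 and 0.848). The CD8 and naive markers of PBS males summed to 2448 to 2563 CPM under the KO FT and 3362 to 3439 CPM under the WT FT, and those of PBS females to 754 to 784 and 840 to 842 CPM. After aGC they summed to 569 to 616 and 564 to 607 CPM in KO FT and WT FT males, and to 2012 to 2105 and 2645 to 2713 CPM in KO FT and WT FT females. The part of these differences in the receptor values was not tested.

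Some of these PBS differences rested on few libraries. That of Cxcr3 did not pass when WT FT PBS female replicate 2 or 3, WT FT PBS male replicate 2 or 3, KO FT PBS female replicate 3, or KO FT PBS male replicate 1 or 3 was left out (log2 difference 0.09 to 0.11, edgeR, adjusted p = 0.054 to 0.0948), nor without the filter on low counts (0.08, adjusted p = 0.26). That of Cxcr5 in females did not pass without WT FT PBS female replicate 1 (0.40, edgeR, adjusted p = 0.146), WT FT PBS female replicate 3 (0.45, adjusted p = 0.0876) or KO FT PBS female replicate 2 (0.46, adjusted p = 0.0817), and in males it did not pass without WT FT PBS male replicate 3 (-0.37, adjusted p = 0.0755). Cxcr4 as a mean of the sexes passed without KO FT PBS female replicate 2 (0.57, edgeR, adjusted p = 0.0391), and Cxcr6 in males without KO FT PBS male replicate 1 (0.16, edgeR, adjusted p = 0.0414).

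**Figure D4:**
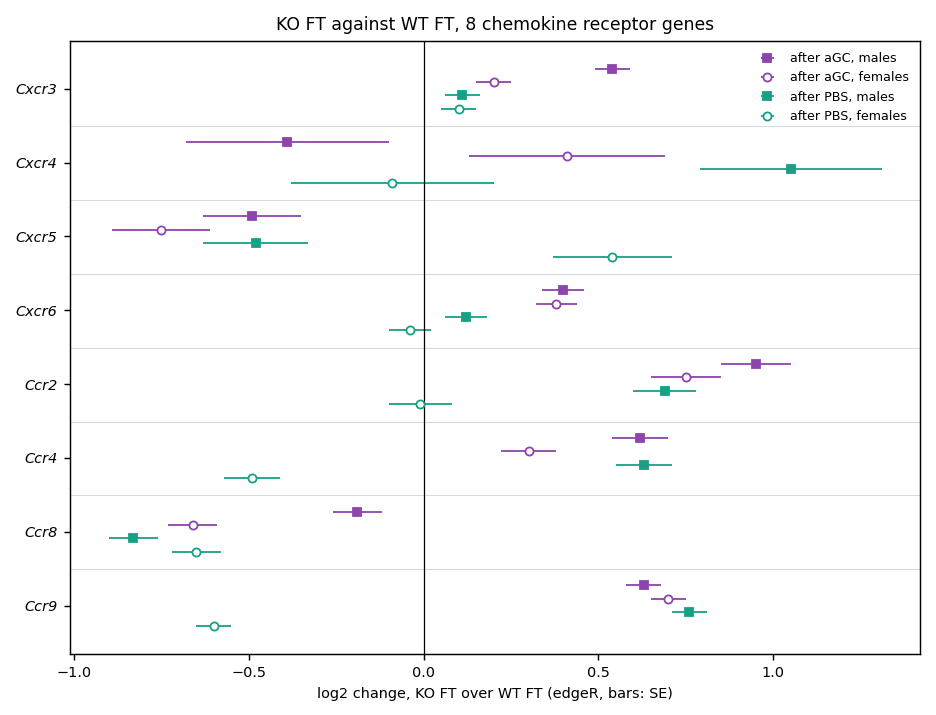
Log2 difference of KO FT over WT FT (x axis, edgeR; bars, SE) for each receptor gene after aGC in males (filled purple squares) and females (open purple circles), and after PBS in males (filled green squares) and females (open green circles). After aGC, Cxcr3, Cxcr6, Ccr2, Ccr4 and Ccr9 lie right of 0 in both sexes, whereas after PBS the values of Ccr4, Ccr9 and Cxcr5 lie on opposite sides of 0 in males and females.

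Whether the transplant changed the answer to aGC was tested as the difference between the responses, KO FT less WT FT. This difference passed for 7 members, 6 higher and 1 lower, against 44.5% of all genes, 21.9% higher and 22.6% lower. It was 0.58 ± 0.05 for Ccr9, 0.51 ± 0.09 for Ccr2, 0.39 ± 0.08 for Ccr4, 0.35 ± 0.06 for Cxcr6, 0.32 ± 0.07 for Ccr8 and 0.27 ± 0.05 for Cxcr3 (edgeR, adjusted p at most 0.000849), and -0.65 ± 0.15 for Cxcr5 (edgeR, adjusted p = 0.00108). These are means of the sexes, and for several genes they came from 1 sex. Ccr9 had a deeper fall in KO FT than in WT FT males (-0.64 and -0.51) but was higher after aGC in KO FT females (0.27, against -1.03 in WT FT females). Cxcr5 had log2 changes of 1.61 and 1.62 in KO FT and WT FT males, beside 2.03 and 3.32 in females. Ccr8 had 1.49 and 0.85 in KO FT and WT FT males, beside 0.83 and 0.84 in females. For Cxcr3 and Ccr2 the fall was smaller in KO FT mice in each sex by value. With aGC males and PBS females only, where 43.5% of all genes passed, the same 7 members passed with the same signs (edgeR, adjusted p at most 0.000631). The difference was 1.23 for Ccr9, 0.96 for Ccr2, 1.11 for Ccr4, 0.46 for Ccr8, 0.44 for Cxcr6, 0.44 for Cxcr3 and -1.03 for Cxcr5. These libraries are part of those behind the means above, and sex differs between the treatments in them. The others are aGC females and PBS males. There KO FT less WT FT was 0.70 and 0.76 for Ccr9 and 0.75 and 0.69 for Ccr2. For Ccr4 it was 0.30 and 0.63, for Cxcr6 0.38 and 0.12, and for Cxcr3 0.20 and 0.11. For Ccr8 it was -0.66 and -0.83, and for Cxcr5 -0.75 and -0.48. The difference between responses in these others alone was not tested. As a mean of the sexes Cxcr4 did not pass (-0.47 ± 0.28, edgeR, adjusted p = 0.185). The same aGC and PBS libraries enter the comparisons of the transplants above.

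Males and females of the same transplant answered differently for most members. The response in males less that in females passed for 7 members in KO FT mice (46.7% of all genes) and for 5 in WT FT mice (47.7% of all genes). Cxcr6, Ccr2 and Cxcr3 had a higher value in males under both transplants: Ccr2 and Cxcr3 had the larger fall in females, and Cxcr6 fell in females but not in males. For Ccr2 the difference was 0.87 ± 0.13 in KO FT mice and 1.36 ± 0.14 in WT FT mice (edgeR, adjusted p = 1.38e-05 and 2.61e-08). Ccr8 rose more in males in KO FT mice (0.67 ± 0.10, edgeR, adjusted p = 1.43e-05) and the difference did not pass in WT FT mice (0.01 ± 0.10, edgeR, adjusted p = 0.961). Cxcr5 rose less in males than in females in WT FT mice (-1.70 ± 0.21, edgeR, adjusted p = 5.25e-07), where PBS females held the lowest Cxcr5 of all groups.

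**Figure D5:**
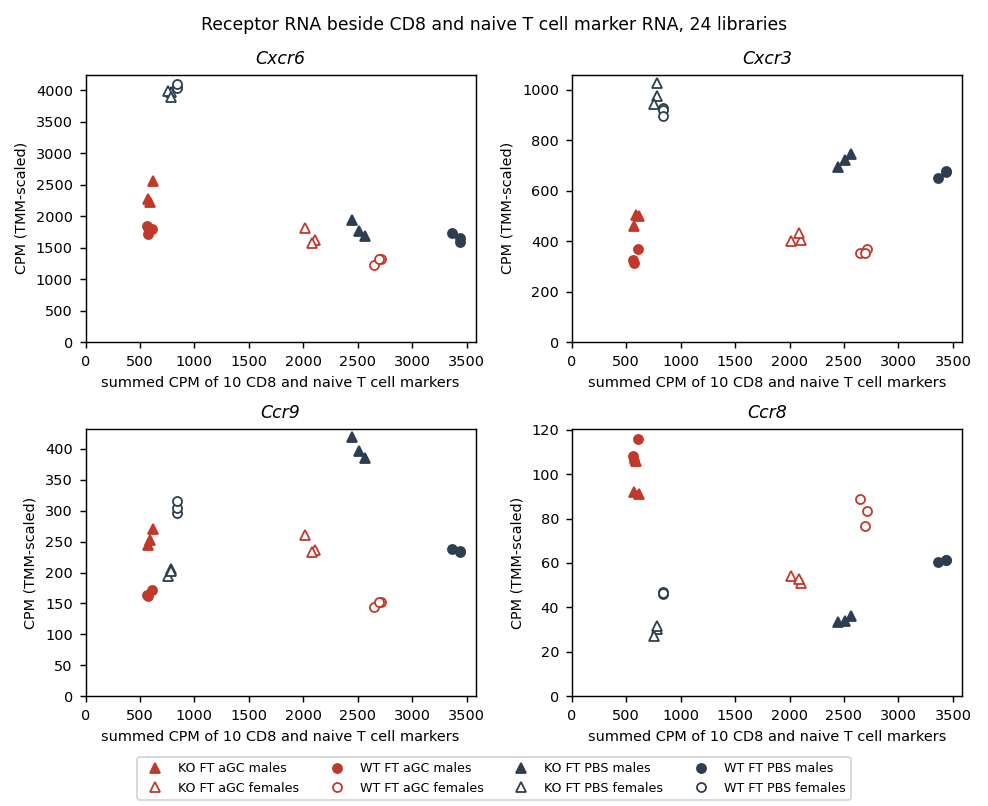
CPM of Cxcr6, Cxcr3, Ccr9 and Ccr8 (y axes, from 0) against the summed CPM of 10 CD8 and naive T cell markers (x axis) in 24 libraries. Triangles are KO FT and circles WT FT, red is aGC and dark blue PBS, filled symbols are males and open symbols females. The 12 libraries of aGC males and PBS females lie between 564 and 842 CPM on the x axis and the other 12 between 2012 and 3439, and Cxcr3 separates aGC from PBS in both sets.

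When the 3 libraries of each group were summed to 1 profile, with sex as a term in the fit, fewer calls remained. The spread in that fit, on 3 residual degrees of freedom, is how far effects of treatment and transplant differed between males and females. The CD8 and naive T cell markers moved in opposite directions in the sexes after aGC. Their part in that spread was not tested. In WT FT mice Cxcr3, Ccr2, Cxcr5 and Ccr8 still passed for aGC against PBS (edgeR, adjusted p = 0.0162, 0.0286, 0.0187 and 0.0476), as did 10.1% of all genes. In KO FT mice Ccr8 passed (edgeR, adjusted p = 0.0457), as did 2.07% of all genes, while Cxcr3, Cxcr5 and Ccr2 had adjusted p = 0.0804, 0.0898 and 0.163. For KO FT against WT FT after aGC, after PBS and for the difference between the responses no gene passed in this edgeR fit (0 members and 0 of 15953 genes, with 1306, 255 and 628 genes at an unadjusted p under 0.05). On the 24 libraries, edgeR called 8278, 4690 and 7093 genes in these comparisons.

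The 10 other conventional chemokine receptors, of which 7 passed the filter, moved in both directions. In KO FT mice 2 were higher, 1 lower and 4 did not pass after aGC, and in WT FT mice 2 were higher, 2 lower and 3 did not pass. Of all genes 28.1% were higher and 30.1% lower in KO FT mice, and 30.9% and 37.5% in WT FT mice. Ccr7, whose ligands draw naive T cells into lymph nodes, was among the markers of the CD8 and naive set: it stood at 225 and 395 CPM in KO FT males and females after aGC, against 504 and 170 CPM after PBS. Ccr7 in WT FT males and females stood at 293 and 584 CPM after aGC, against 607 and 208 CPM after PBS. Ccr6, a receptor of mouse type 17 T cells, was lower after aGC in females: it averaged 1.73 CPM in KO FT females after aGC, against 6.80 CPM after PBS (log2 change -1.98 ± 0.33, edgeR, adjusted p = 2.19e-05). WT FT females had 0, 0.223 and 0 CPM of Ccr6 after aGC, against 3.34, 2.59 and 4.74 CPM after PBS. In males the change did not pass, with 0.35 ± 0.30 in KO FT and -0.41 ± 0.31 in WT FT males (edgeR, adjusted p = 0.343 and 0.251).

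Of the 14 ligands of the 8 receptors, 8 passed the filter, and Ccl1, the ligand of CCR8, moved most. Ccl1 was 94.5 and 87.8 CPM in KO FT males and females after aGC, against 0.591 and 0.998 CPM after PBS, and 375 and 167 CPM in WT FT males and females after aGC, against 5.40 and 0.319 CPM after PBS. Its log2 change was 6.86 ± 0.13 in KO FT mice and 7.38 ± 0.11 in WT FT mice (edgeR, adjusted p = 5e-22 and 7.1e-24), so the genes of this receptor and ligand were both higher after aGC. Ccl1 and Ccr8 were also both lower in KO FT than in WT FT mice after aGC (log2 difference of Ccl1 -1.46 ± 0.07, edgeR, adjusted p = 5.45e-13). Cxcl10, a ligand of CXCR3, had log2 changes of 1.19 ± 0.11 in KO FT mice and 2.38 ± 0.12 in WT FT mice (edgeR, adjusted p = 1.34e-09 and 2.71e-14). Cxcl10 averaged 13.6 and 10.1 CPM in KO FT males and females after aGC, against 2.29 and 11.5 CPM after PBS, and 9.53 and 10.7 CPM in WT FT males and females after aGC, against 0.482 and 7.69 CPM after PBS. Its change passed in both groups of males and in WT FT females, and not in KO FT females (-0.18 ± 0.14, edgeR, adjusted p = 0.295). Cxcl16, the ligand of CXCR6, and Ccl25, the ligand of CCR9, stayed at most 3.99 and 7.41 CPM. In all, 3 ligand genes were higher, 1 lower and 4 did not pass in KO FT mice, beside 28.1% higher and 30.1% lower of all genes. In WT FT mice 3 were higher, 2 lower and 3 did not pass, beside 30.9% and 37.5% of all genes.

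Genes that signal from the receptors to migration were mostly lower after aGC in WT FT mice. Of 17 genes of the inhibitory G protein and its effectors 4 were higher, 12 lower and 1 did not pass in WT FT mice (median log2 change -0.45, beside -0.11 over all genes). In KO FT mice 3 were higher, 7 lower and 7 did not pass (median -0.11, beside -0.03). Of all genes tested 30.9% were higher and 37.5% lower in WT FT mice, and 28.1% and 30.1% in KO FT mice. Prex1, an activator of the small GTPase Rac, had log2 changes of -0.68 ± 0.05 in KO FT mice and -1.64 ± 0.06 in WT FT mice (edgeR, adjusted p = 1.85e-10 and 1.32e-17). Pik3r5, a subunit of the phosphoinositide 3-kinase that G proteins activate, was higher in KO FT than in WT FT mice after aGC, by 1.13 ± 0.06 (edgeR, adjusted p = 3.76e-13). In that comparison 9 of the 17 genes were higher, 3 lower and 5 did not pass, beside 25.4% higher and 26.5% lower of all genes. Of 14 genes that switch receptors off 3 were higher, 8 lower and 3 did not pass after aGC in KO FT mice. In WT FT mice 2 were higher, 10 lower and 2 did not pass, beside the same shares over all genes as for the 17 genes. Rgs16, which ends G protein signals, had the lowest adjusted p of these: it stood at 38.7 and 38.4 CPM in KO FT males and females after aGC, against 2.83 and 2.91 CPM after PBS. Rgs16 in WT FT males and females stood at 48.8 and 38.9 CPM after aGC, against 6.57 and 5.10 CPM after PBS, with log2 changes of 3.74 ± 0.08 in KO FT mice and 2.91 ± 0.07 in WT FT mice (edgeR, adjusted p = 4.24e-21 and 2.81e-20). Its relative Rgs14 went the other way (-0.92 ± 0.04 and -1.37 ± 0.04, edgeR, adjusted p = 1.71e-15 and 5.52e-19).

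Among 13 genes of adhesion and tissue homing, 6 were higher, 5 lower and 2 did not pass after aGC in KO FT mice. In WT FT mice 1 was higher, 9 lower and 3 did not pass. Of all genes 28.1% were higher and 30.1% lower in KO FT mice, and 30.9% and 37.5% in WT FT mice. Itgb7, the beta chain of the gut homing integrin alpha4 beta7, was lower after aGC, with log2 changes of -0.85 ± 0.04 in KO FT mice and -1.15 ± 0.04 in WT FT mice (edgeR, adjusted p = 3.23e-15 and 5.37e-18). Its level was 668 and 959 CPM in KO FT males and females after aGC, against 1685 and 1231 CPM after PBS, and in WT FT males and females 545 and 1038 CPM after aGC, against 1809 and 1539 CPM after PBS. After aGC 11 of the 13 genes were higher in KO FT than in WT FT mice, 1 was lower and 1 did not pass (median log2 difference 0.22, beside 0.00 over all genes, of which 25.4% were higher). In males alone 10 were higher, 1 lower and 2 did not pass, and in females alone 5 were higher, 3 lower and 5 did not pass. In either direction 46.5% of all genes passed in males alone and 43.4% in females alone. Itgal, a chain of the integrin LFA-1, was 0.59 ± 0.04 higher on the log2 scale (edgeR, adjusted p = 9.19e-12). Itga4, the alpha chain that pairs with Itgb7, was 0.65 ± 0.09 higher (edgeR, adjusted p = 1.23e-06), and Itgb7 itself 0.09 ± 0.04 higher (edgeR, adjusted p = 0.0492). Unlike Itgb7, Itga4 was not lower after aGC than after PBS. Its log2 change was 0.66 ± 0.09 in KO FT mice and 0.01 ± 0.09 in WT FT mice (edgeR, adjusted p = 5.18e-07 and 0.919).

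The genes whose pattern was most like that of each receptor were taken by Pearson correlation of log2 CPM over the 24 libraries, among 9611 other genes with a mean of at least 5 CPM. The libraries come in 8 groups of 3 and are not independent, so the coefficients are descriptions. Cxcr3 went most closely with Tk2 (r = 0.989), Ly6e (0.987) and Rab19 (0.987), and Ccr2 with Aqp9 (0.982), Crot (0.978) and St3gal6 (0.976). Cxcr5 went with Mthfd1l (0.971), Egr2 (0.965) and Rps25 (0.964), and Ccr8 with Lta (0.944), Foxred2 (0.940) and Wdr34 (0.923). Cxcr6 went with Asb2 (0.965), Fgl2 (0.961) and Chsy1 (0.951), and Ccr9 with Cog3 (0.961), Esyt2 (0.959) and Carmil2 (0.953). Ccr4 went with Emc1 (0.925), Nfe2l1 (0.908) and Tnfrsf1b (0.905), and Cxcr4, the scarcest, with Klhl5 (0.838), Sidt2 (0.786) and Ets2 (0.764). Among the members, Cxcr3 and Ccr2 were alike (r = 0.95) and Cxcr3 and Cxcr5 opposite (r = -0.95), over the same 24 libraries.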

How the data were processed

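RNA of sorted iNKT cells was measured in 24 libraries. The values are estimated counts per gene as deposited by the authors, made with kallisto on GRCm38 (mm10), per the submitters' processing notes; neither a version nor an annotation release is given in the sources used here. They are whole numbers as deposited and were used as such. Libraries were made with Nextera XT, which does not keep the strand, per the labels' protocols. The table names genes by Ensembl identifier: 55154 of 55335 have a symbol in GENCODE M21 and 181 have none. A gene of 3 counts or fewer in a library is at the limit of detection, 0.0801 to 0.302 CPM.

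The filter was filterByExpr, with a minimum count of 10 and a minimum total of 15; 15953 genes passed it. TMM-scaled counts were fitted with 8 group means (16 residual degrees of freedom) in edgeR 4.0.16 on R 4.3.3. The 15 comparisons used the two-sided quasi-likelihood F test with Benjamini-Hochberg adjustment over all tested genes and a threshold of 0.05. The SE is the log2 change over the square root of F. Alternatives were DESeq2 1.42.0 (size factors, and its Wald test), upper-quartile scaling, no filter, each library left out, the replicate number as a block, 1 summed profile per group, and PBS females with aGC males only. Similar genes were taken by Pearson r of log2 CPM (prior count 2, mean of at least 5 CPM). The fit was tested on simulated data. Same-numbered libraries of different groups did not deviate together (84 pairs over 8359 genes, r of -0.265 to 0.431, median -0.0241, 10 pairs over 0.1), and nothing in the labels says that the numbers mark a shared animal or batch, so they were not taken as pairs.

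The 8 members were named for their family, and they and the gene lists were chosen with earlier results of these data known. All 8 members are given in every main comparison; from each other list up to 4 genes with the lowest adjusted p in a comparison and up to 2 that did not pass are named, besides the defining markers of other cell types and, for each member, the 3 most correlated genes. Plots were made with matplotlib 3.10.9 and tables with pandas 2.3.3 and numpy 2.4.6, in Python 3.11.15. Some genes of the other lists are not reported here.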

Additional observations from a re-analysis of the deposited data

Results flagged for a closer look

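The log2 change after aGC differed between the transplants for 7 of the 8 receptor genes, by a test of the difference itself (edgeR, KO FT less WT FT). Of all genes tested 44.5% passed in that test. The difference was 0.58 for Ccr9, 0.51 for Ccr2, 0.39 for Ccr4, 0.35 for Cxcr6, 0.32 for Ccr8, 0.27 for Cxcr3 and -0.65 for Cxcr5.

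Between the sexes, the change differed for 7 genes in KO FT mice (edgeR, males less females, 46.7% of all genes). It was 1.63 for Cxcr6, 0.87 for Ccr2, 0.69 for Cxcr3, 0.67 for Ccr8, -0.59 for Ccr4, -0.91 for Ccr9 and -2.56 for Cxcr4. In WT FT mice it differed for 5 genes (47.7% of all genes), with 1.77 for Cxcr6, 1.36 for Ccr2, 0.52 for Ccr9, 0.36 for Cxcr3 and -1.70 for Cxcr5. Ccr9 had opposite signs in the 2 transplants. In both transplants the CD8 and naive T cell markers also moved in opposite directions in males and females, and their part in these differences was not tested.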

How the results depend on the processing

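DESeq2's size factors and its Wald test kept the direction and the side of the threshold for 120 of 120 results on single receptors, upper-quartile scaling for 119 and no filter for 116. Replicate numbers did not pair the libraries; with the number as a block 120 of 120 were kept, and the change of Cxcr3 in WT FT mice was -1.17. With 1 summed profile per group, 1 member passed for aGC in KO FT mice, against 7 of 8 on the libraries, and 0 passed between the transplants after aGC, after PBS or in the response; Cxcr5 after PBS turned to -0.06. That fit has 3 residual degrees of freedom. For aGC in WT FT mice Ccr4 turned to -0.16 in aGC males and PBS females, -0.02 with upper-quartile scaling and -0.04 with no filter. Among aGC males and PBS females only, aGC in KO FT mice turned for Cxcr4 (0.32) and Ccr9 (0.35), the transplant difference after PBS for Cxcr4 (-0.09), Cxcr6 (-0.04), Ccr2 (-0.01), Ccr4 (-0.49) and Ccr9 (-0.60), and after aGC for Cxcr4 (-0.39); these use 1 sex per treatment. By the longest transcript, levels per kilobase were 5.75 for Cxcr5, 18.2 for Ccr2, 12.9 for Ccr4 and 47.1 for Ccr9. The cause was not tested.

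Leaving out 1 library at a time kept 2846 of 2880 results, from 120 results and each of 24 libraries. Many of these left out a library of a group outside the comparison, where little could change. The share kept therefore overstates how stable the results are. The transplant difference after PBS ranged over 0.09 to 0.12 for Cxcr3, 0.37 to 0.57 for Cxcr4 and -0.04 to 0.15 for Cxcr5. In PBS females it ranged over -0.30 to 0.09 for Cxcr4, 0.40 to 0.77 for Cxcr5 and -0.05 to 0.04 for Ccr2, and in PBS males over -0.62 to -0.37 for Cxcr5 and 0.06 to 0.16 for Cxcr6. After aGC it ranged over -0.13 to 0.16 for Cxcr4, and in males over -0.27 to -0.15 for Ccr8. For aGC in WT FT males the range was -0.44 to 0.05 for Cxcr4 and 0.08 to 0.16 for Cxcr6. The sex difference of Ccr8 in WT FT mice ranged over -0.03 to 0.07. Depth limits Cxcr4 most, with 14 to 147 counts per library.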

Other observations

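The 8 genes listed for iNKT identity include Trav11, Traj18 and Zbtb16 but also general T cell genes such as Cd3e. They were lower after aGC under both transplants, 8 of 8 in edgeR's test in each. Of all genes 30.1% were lower in KO FT mice and 37.5% in WT FT mice. The median log2 change was -0.54 in KO FT mice, beside -0.03 over all genes, and -0.59 in WT FT mice, beside -0.11. Their sum was 4705 to 5543 CPM in the 12 aGC libraries and 6715 to 8092 CPM in the 12 PBS libraries, with no overlap. Trav11, Traj18 and Zbtb16 did not exceed 880, 117 and 84.9 CPM in any library, so other genes made up most of this sum. Cxcr3 also separated the 12 aGC from the 12 PBS libraries, and whether the sum bears on it was not tested.

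Ccrl2, a chemerin-binding receptor listed apart from the 10 conventional ones, stood at 9.16 to 36.4 CPM, and Ackr1, Ackr2, Ackr3 and Ackr4, which take up chemokines without G protein signals, did not exceed 1.02 CPM in any library.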
